A study of Homo sapiens with 6 samples.

Results

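Mucins are large glycoproteins whose extracellular part carries dense chains of O-linked sugars. Transmembrane mucins such as MUC1, MUC4 and MUC16 sit on the apical face of epithelial cells, where they form a barrier and signal through short cytoplasmic tails, whereas gel-forming mucins such as MUC2, MUC5B and MUC6 are secreted and build mucus. In the breast, MUC1 lines the apical surface of luminal cells and is shed into blood in cancer, which is the basis of the CA15-3 marker. Here, 10 mucin genes were followed in pure luminal (pLUM) and pure luminobasal (pLB) breast cancer cells. They were taken by gene name: every gene spot named MUC1, MUC2, MUC4, MUC5B, MUC6, MUC12, MUC13, MUC15, MUC16 or MUC20 was used, which gave 22 of the 34127 gene probes on the array and 10 of its 25940 gene names.

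Both lines descend from T47Dco, a luminal human breast cancer cell line that had been grown as xenografts in ovariectomized NSG mice. pLUM cells came from a tumor under estradiol (E), were kept in 1 nM E and were sorted as CLD3+ CD49f-. pLB cells came from a tumor under E plus progesterone, were kept under estrogen withdrawal (EWD) and were sorted as CLD3- CD49f+. Culture before this sort lasted about 2 months for pLUM and about 2.5 months for pLB. Both lines were then cultured for about 2 months more and re-sorted 2 times. RNA from 3 sorts of each line, made after 72 h of 1 nM E for pLUM and under EWD for pLB, was hybridized to 1-colour Agilent arrays. Each line is a single derived population. Line, hormone and time in culture before the CLD3 and CD49f sort coincided on all 6 arrays and cannot be told apart. P-values therefore measure the spread between sorts of the same line, and fewer expressing cells and less RNA per cell cannot be told apart.

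The deposited signal of each spot was expressed as log2 relative to the 75th percentile of its array, so that 0 marks that percentile. Between 21285 and 22775 probes per array were well above background, by the flag of the scanner software, and no gene spot was saturated. Probes were tested with limma if they were well above background on 3 or more of the arrays, which left 23105, with Benjamini-Hochberg adjustment over all of them. A probe was called if its adjusted p was under 0.05 and the lines differed at least 2-fold. Of 8 luminal markers, 7 were called lower in pLB, and of 8 basal markers all 8 were called higher, each by its brightest tested probe. Over all tested genes, 23.0% were called lower and 22.7% higher. CLDN3 and ITGA6 encode the sort markers CLD3 and CD49f, and KRT5 encodes CK5, stained before the RNA sort. Their directions are therefore not independent evidence. KRT5, KRT14, TP63 and SNAI2 were well above background on no pLUM array, and PGR on no pLB array. These passed the filter through 1 line alone and had to differ. For KRT8, 2 tested probes were lower and 1 was higher. Slide 1 held all 3 pLUM arrays with pLB replicate 1, and slide 2 held pLB replicates 2 and 3.

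MUC1, MUC15 and MUC20 were lower in pLB, and part of MUC4 was higher. Of the 22 probes, 11 were tested, for 6 of the 10 genes, and 4 probes were called lower in pLB, where 23.7% of all tested probes were called lower. These were the 2 probes for MUC1 and the single probes for MUC15 and MUC20. Another 2 probes, both for the repeat region of MUC4, were called higher, where 21.9% of all tested probes were called higher, and 5 were not called. The 7 tested probes for transmembrane mucins held all 6 calls, and none of the 4 tested probes for gel-forming mucins passed both thresholds. The classes were not tested against each other, and 2 of the calls come from overlapping MUC4 probes. The MUC15 and MUC20 probes, well above background on no pLB array, passed the filter through pLUM alone and had to differ. The median log2 difference (pLB minus pLUM) over the tested mucin probes was 0.66, beside -0.01 over all tested probes, but it was -0.13 with the normexp background correction and 0.05 with slide as a block.

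**Figure D1:**
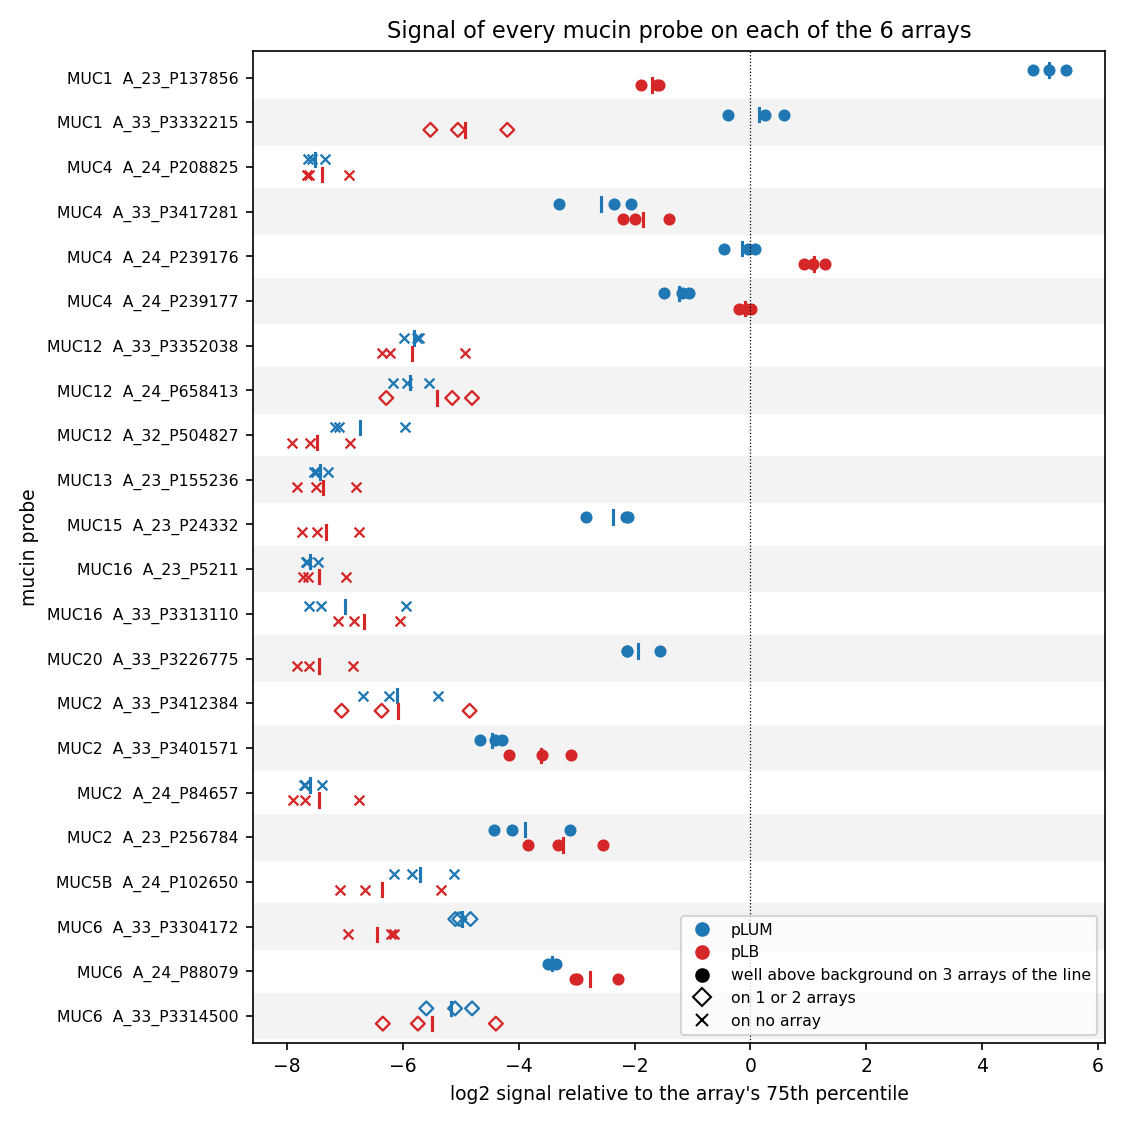
Log2 signal relative to the array's 75th percentile (x axis) for each of the 22 mucin probes (y axis), with 1 point per array, pLUM in blue and pLB in red, and a vertical bar at the mean of each line. Filled circles mark probes well above background on 3 arrays of the line, open diamonds those on 1 or 2, and crosses those on none. The lines stand apart at both MUC1 probes, at MUC15 and MUC20, and at the 2 MUC4 probes called higher, and 8 probes are crosses in both lines. The lines also do not overlap at MUC2 probe A_33_P3401571 and MUC6 probe A_24_P88079, not called, and MUC6 probe A_33_P3304172, not tested.

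MUC1 showed the largest fitted difference of the mucins. The array carries 2 probes for it, shown here because they read separate parts of the messenger RNA and share no run of 16 bases. On hg19, probe A_23_P137856 maps to the minus strand at chr1:155158652-155159726, a span of 1075 bases for a probe of 60 bases, so that it crosses at least 1 intron. Probe A_33_P3332215 lies upstream of it in the direction of transcription, at chr1:155161975-155162034.
MUC1 A_23_P137856: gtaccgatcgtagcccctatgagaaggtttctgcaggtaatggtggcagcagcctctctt
MUC1 A_33_P3332215: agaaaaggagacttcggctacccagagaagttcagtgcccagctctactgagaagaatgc

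The downstream MUC1 probe gave log2 signals of 5.16, 4.88 and 5.45 in pLUM replicates 1, 2 and 3, and -1.58, -1.89 and -1.62 in pLB replicates 1, 2 and 3. All pLUM arrays were thus far above the 75th percentile, all pLB arrays were below it, and the probe was well above background on all 6. The log2 difference was -6.86 ± 0.20 (SE of the limma fit, n = 3 per line), with an adjusted p of 6.06e-07, which is a 116-fold lower signal in pLB and ranks 216 by size among the 23105 tested probes. MUC1 is one of the markers by which the study described the lines, so this direction is not independent evidence.

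The upstream MUC1 probe was dimmer. Its log2 signals were -0.38, 0.58 and 0.25 in pLUM and -5.53, -5.05 and -4.20 in pLB, again without overlap, and on pLB replicate 1 it was not well above background. The log2 difference was -5.08 ± 0.39 (SE, n = 3 per line, limma adjusted p = 3.22e-05), or 33.7-fold. With the normexp background correction it was 8.65-fold, whereas the downstream probe was then 81.5-fold lower.

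MUC15 and MUC20, both transmembrane mucins, were measured in pLUM only. In pLB neither probe exceeded background clearly on an array, so that both passed the filter through pLUM alone and had to differ. The MUC15 probe (hg19 chr11:26582464-26582523, minus strand) gave log2 signals of -2.84, -2.16 and -2.12 in pLUM and -7.49, -7.75 and -6.77 in pLB. Because the pLB values are background, the difference is given as a bound, the pLUM mean against the dimmest signal still well above background on each pLB array, or the pLB signal where that is higher. For probes given by such a bound, here and below, the filter was passed through 1 line alone, so their p-values are printed as fitted and support nothing. MUC15 was at least 7.58-fold lower in pLB (limma adjusted p = 1.39e-05), with means of -2.37 in pLUM and -7.34 in pLB.

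The MUC20 probe (chr3:195464463-195464522, plus strand) gave -1.56, -2.13 and -2.13 in pLUM and -7.63, -7.83 and -6.87 in pLB. MUC20 was at least 10.2-fold lower in pLB (limma adjusted p = 6.9e-06), with means of -1.94 and -7.44. MUC20 binds the receptor MET. RefSeq (GRCh38.p14) lists a pseudogene, MUC20P1, on the same chromosome, and signal from such a copy cannot be told apart from that of MUC20. Both bounds are smaller after normexp, at least 2.99-fold for MUC15 and at least 3.49-fold for MUC20.

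MUC4, which associates with ERBB2 at the cell surface, was the only member with a call in the opposite direction. Of its 4 probes, 3 fall in the upstream part of the gene, where the tandem repeats are encoded, and the fourth lies near the 3′ end. They are shown because the repeat probes overlap or resemble each other, so that they are not separate measurements. In the sequences, capitals mark runs of at least 16 bases shared with another MUC4 probe. Probes A_24_P239176 (chr3:195514760-195514819) and A_24_P239177 (chr3:195514780-195514839) share 40 bases, and A_33_P3417281 (chr3:195506310-195506369) shares 21 bases with the latter. Probe A_24_P208825 (chr3:195474164-195474223) shares none, and all 4 are on the minus strand of hg19.
MUC4 A_24_P239177: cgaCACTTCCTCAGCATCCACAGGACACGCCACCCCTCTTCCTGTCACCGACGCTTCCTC
MUC4 A_24_P239176: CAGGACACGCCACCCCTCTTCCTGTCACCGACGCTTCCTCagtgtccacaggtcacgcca
MUC4 A_33_P3417281: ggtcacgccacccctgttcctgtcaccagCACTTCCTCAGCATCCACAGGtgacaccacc
MUC4 A_24_P208825: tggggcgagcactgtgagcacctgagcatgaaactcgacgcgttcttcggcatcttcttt

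MUC4 probe A_24_P239176 gave log2 signals of 0.08, -0.03 and -0.46 in pLUM and 1.28, 1.08 and 0.92 in pLB. Every pLB array was above every pLUM array, and the log2 difference was 1.23 ± 0.20 (SE, n = 3 per line, limma adjusted p = 0.00145), or 2.35-fold. The overlapping probe A_24_P239177 gave -1.05, -1.17 and -1.49 in pLUM and -0.07, 0.01 and -0.20 in pLB. It did not overlap between the lines either, with a log2 difference of 1.15 ± 0.18 (limma adjusted p = 0.00107), or 2.23-fold, but with normexp it was 1.91-fold and no longer reached the fold required for a call.

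The other MUC4 probes were not called. Probe A_33_P3417281 gave log2 signals of -2.05, -2.36 and -3.31 in pLUM and -2.19, -1.99 and -1.40 in pLB, so that the lines overlapped, with a log2 difference of 0.72 ± 0.36 (limma adjusted p = 0.123), of the same sign as that of the called probes. The downstream probe A_24_P208825 was well above background on none of the 6 arrays, with log2 signals from -7.65 to -6.93, and was not tested. The MUC4 call therefore rests on overlapping repeat probes, and the part of the gene near the 3′ end gave no signal well above background in either line.

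Slide 2 held no pLUM array, so that with slide as a block the difference is that of pLB replicate 1 from the 3 pLUM arrays, and the spread is taken from the other arrays. This single pLB array cannot show the spread of the line. The log2 differences were then -6.75 and -5.68 for the MUC1 probes, -5.12 for MUC15 and -5.69 for MUC20. They were 1.42 and 1.17 for the MUC4 probes A_24_P239176 and A_24_P239177. The upstream MUC1 probe, MUC15 and MUC20 were not well above background on pLB replicate 1, so their sizes depend on the background.

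**Figure D2:**
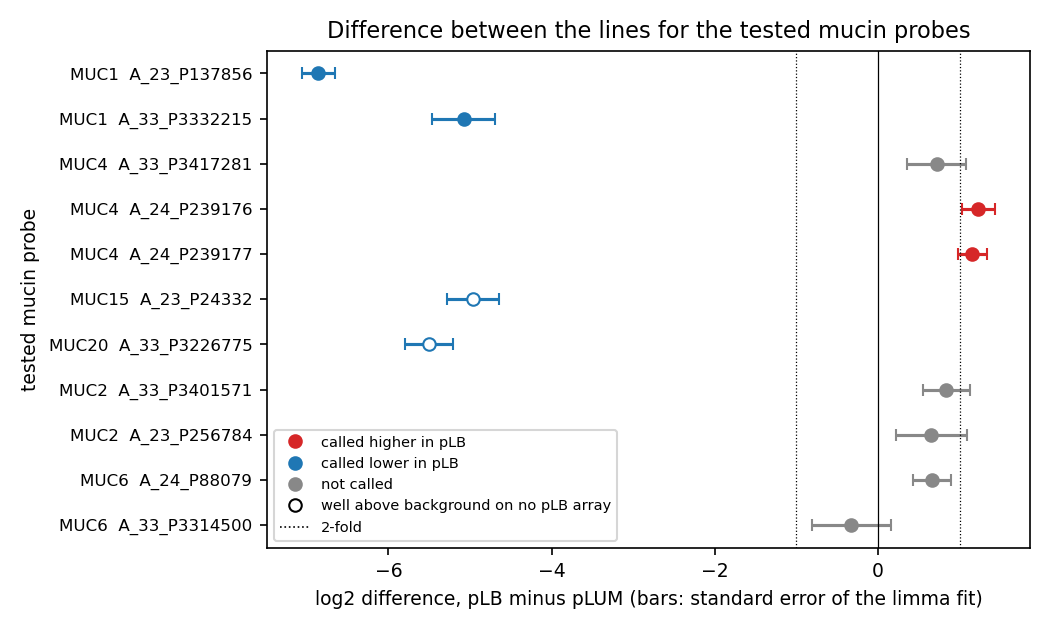
Log2 difference, pLB minus pLUM (x axis), for the 11 tested mucin probes (y axis), with bars for the standard error of the limma fit and dotted lines at a 2-fold difference. Blue marks probes called lower in pLB, red those called higher and grey those not called, and open circles mark MUC15 and MUC20, which were well above background on no pLB array. The MUC1, MUC15 and MUC20 probes lie between -6.86 and -4.96, and the called MUC4 probes lie at 1.15 and 1.23.

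The gel-forming mucins were dim in both lines. MUC2, the main mucin of the intestine, has 4 probes, of which 2 were tested. Probe A_33_P3401571 (chr11:1092337-1092396) gave log2 signals of -4.29, -4.42 and -4.66 in pLUM and -4.17, -3.59 and -3.09 in pLB. These did not overlap, but the log2 difference of 0.84 ± 0.29 (limma adjusted p = 0.0363) is 1.79-fold and was not called. It was called without pLB replicate 1, at 1.11 (adjusted p = 0.00641), and under spike-in scaling, at 1.03 (adjusted p = 0.0157), and it was -0.13 with normexp.

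MUC2 probe A_23_P256784 gave -3.12, -4.11 and -4.43 in pLUM and -3.84, -3.32 and -2.54 in pLB, with overlap between the lines and a log2 difference of 0.66 ± 0.43 (adjusted p = 0.221). Of the untested MUC2 probes, A_24_P84657 was well above background on no array and A_33_P3412384 on 1 array of pLB.

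MUC6, a gastric gel-forming mucin, has 3 probes, and they differed in sign. Probe A_24_P88079 (chr11:1015815-1015874) gave log2 signals of -3.36, -3.42 and -3.49 in pLUM and -3.03, -2.997 and -2.28 in pLB, a log2 difference of 0.66 ± 0.23 (limma adjusted p = 0.0414). The lines did not overlap at this probe, but the difference is 1.58-fold and was not called. It was 0.05 with normexp and 0.40 with slide as a block, on the log2 scale. Probe A_33_P3314500 (chr11:1016826-1016885) gave -5.10, -5.60 and -4.81 in pLUM and -6.35, -5.74 and -4.40 in pLB, a log2 difference of -0.33 ± 0.49 (adjusted p = 0.58), which became 0.10 without pLB replicate 1.

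The MUC6 probe nearest the 3′ end, A_33_P3304172, was well above background on 2 pLUM arrays only and was therefore not tested. Its log2 signals were -5.10, -5.03 and -4.83 in pLUM and -6.16, -6.21 and -6.95 in pLB. With no filter on dim probes it had a log2 difference of -1.46 (limma adjusted p = 0.00409) and would have been called lower, and its bound is at least 1.24-fold lower in pLB.

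The remaining 4 mucins had no tested probe. MUC5B, an airway mucin with 1 probe, MUC13, an intestinal transmembrane mucin with 1 probe, and MUC16, which carries the CA125 epitope and has 2 probes, were well above background on none of the 6 arrays. Of the 3 probes for MUC12, another intestinal transmembrane mucin, only A_24_P658413 was well above background, on pLB replicate 2 alone, where its log2 signal was -5.15. The log2 signals of the MUC13 probe lay between -7.53 and -7.29 in pLUM and between -7.83 and -6.81 in pLB. A level below these backgrounds was not detectable here.

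By the smallest root mean square distance over the 6 centred log2 signals, among 14050 genes well above background on all arrays, the genes with the pattern most like MUC1 were MFSD7 (SLC49A3 in RefSeq) and CLDN3. Their distances were 0.23 and 0.26 on the log2 scale. Their log2 differences were -6.89 and -6.70, beside -6.86 for MUC1. With pLUM and pLB alone compared, the distance largely follows the size of the difference between the lines. CLDN3 encodes claudin 3, the CLD3 by which both lines were sorted. The CLDN3 probe gave log2 signals of 5.28, 5.28 and 5.34 in pLUM and -1.35, -1.21 and -1.63 in pLB. For MUC4, RTN4, B3GALTL (B3GLCT in RefSeq) and SRBD1 were nearest, at distances of 0.08, 0.09 and 0.09.

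Several mucin genes lie beside other genes that were measured. Within 100 kb of a mucin probe, by the positions of the files, lay 34 genes that are not members, of which 29 were tested. Of these, 9 were called lower in pLB and 2 higher, beside 23.0% and 22.7% of all 17670 tested genes. A gene was represented here by its tested probe with the highest mean signal.

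Around MUC1, 5 of 16 tested genes were called lower and none higher. TRIM46 and THBS3 (thrombospondin 3) have the probes closest to those of MUC1. TRIM46, whose probe lies 1266 bases from that of MUC1, had a log2 difference of -2.40 ± 0.18 (SE, n = 3 per line, limma adjusted p = 2.93e-05). THBS3, at 3814 bases on the other side, had -1.16 ± 0.16 (adjusted p = 0.000515). Both were well above background on all 6 arrays, and both differences were smaller than those of the MUC1 probes. The transcript ENST00000447623, CLK2 and HCN3 were also called lower, at -1.68, -1.50 and -1.91, whereas MTX1, which lies between THBS3 and CLK2, was not called at 0.78.

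MUC20 and MUC4 are neighbours with called differences of opposite sign, their nearest probes being 9701 bases apart. The other tested genes within 100 kb of MUC4 were lower in pLB, BE613848 at a log2 difference of -1.91, LOC440993 at -2.43 and TNK2 at -1.68, with limma adjusted p-values of 0.00022, 0.000175 and 0.000993. The 2 MUC4 probes were thus the only ones at this locus called higher, among the representative probes and all MUC4 and MUC20 probes. In the cluster of gel-forming mucins, AP2A2, MUC6, MUC2 and MUC5AC were not called, whereas TOLLIP, beyond MUC5B, was higher at 1.54 (adjusted p = 0.000237) and LOC255512 (TOLLIP-DT in RefSeq) was lower at -1.10. HEG1, itself a mucin-like receptor and the only neighbour of MUC13, was higher at 2.25 (adjusted p = 9.45e-05).

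**Figure D3:**
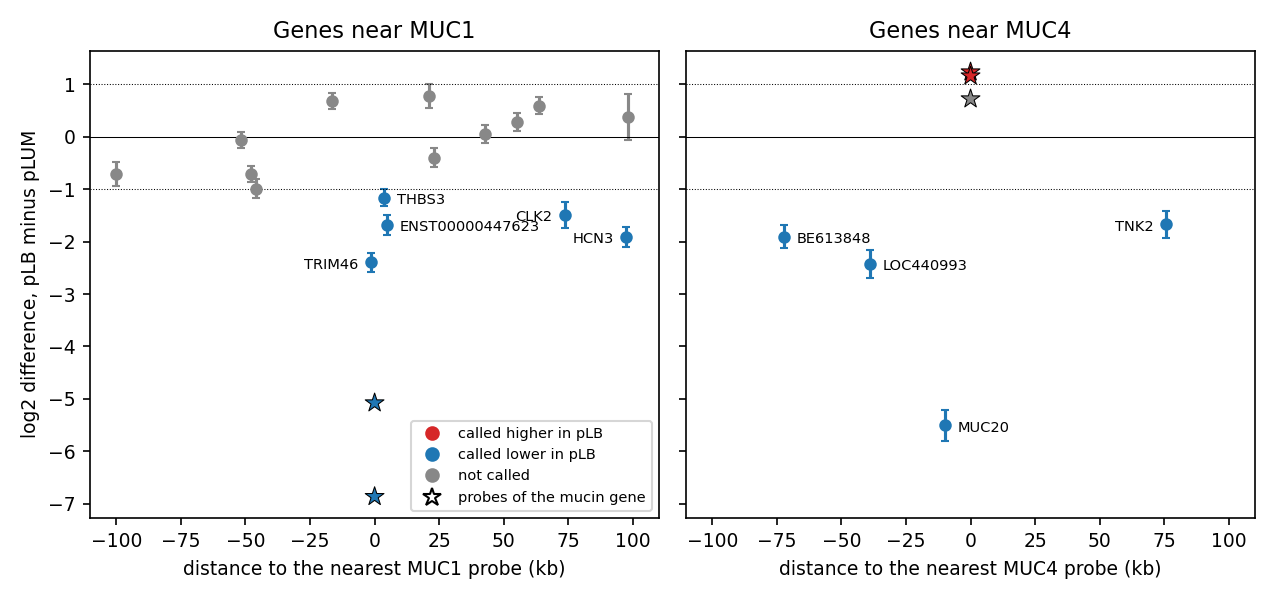
Log2 difference, pLB minus pLUM (y axis), of tested genes within 100 kb of a MUC1 probe (left) or a MUC4 probe (right), against the distance in kb to the nearest such probe (x axis), with bars for the standard error of the limma fit and dotted lines at a 2-fold difference. Stars mark the tested probes of the mucin itself, and MUC20, well above background on no pLB array, is plotted at its fitted difference of -5.50. The 5 called neighbours of MUC1 are all lower, and MUC4 stands above 0 among genes called lower.

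Among 13 other mucins and mucin-like genes on the array, 6 were tested. In each direction 1 was called, beside 22.7% of all genes called higher and 23.0% called lower. OVGP1, called lower, passed the filter through 1 line alone and had to differ. PODXL (podocalyxin, an anti-adhesive sialomucin) was 2.91-fold higher in pLB (log2 difference 1.54 ± 0.15, limma adjusted p = 0.00012). OVGP1 (oviductal glycoprotein) gave log2 signals of -1.69, -1.80 and -1.93 in pLUM and was well above background on no pLB array. It was at least 10.6-fold lower (adjusted p = 8.6e-06, means -1.81 and -5.41), or at least 3.16-fold with normexp. MUC5AC, MUC8, MUCL1 and CD164 were not called, but with slide as a block the log2 difference reached 2-fold for MUC8, at -1.55, and CD164, at 1.00. The 2 tested CD164 probes had opposite signs, at 0.92 and -0.68, or 1.00 and -0.52 with slide as a block.

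The enzymes of the GALNT family attach the initial sugar of mucin-type O-glycans. Of 12 tested, 5 were called higher in pLB, 1 lower and 6 not called, beside 22.7% and 23.0% of all genes. The median log2 difference was 0.77 beside 0.03 over all genes, and 0.37 with normexp. GALNT14 was 9.71-fold higher (3.28 ± 0.16, limma adjusted p = 4.75e-06), with log2 signals of 0.64, 0.71 and 0.77 in pLUM and 4.17, 3.96 and 3.83 in pLB. GALNT2 was 5.80-fold higher, GALNTL4 (GALNT18 in RefSeq) 5.06-fold and GALNTL1 (GALNT16) 4.87-fold, with adjusted p-values of 0.000765, 3.9e-05 and 3.49e-05. With normexp GALNT2 was 2.23-fold and GALNTL1 2.53-fold higher. GALNT4 was 2.76-fold lower (adjusted p = 0.0011), a call lost with normexp, at a log2 difference of -0.78 (adjusted p = 0.0895).

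Of 18 tested enzymes and transporters that build, extend or cap these glycans, 5 were called higher in pLB, 2 lower and 11 not called, with a median log2 difference of -0.02. The share called higher was near the 22.7% of all genes, and with normexp only 2 were called higher. GCNT1, called higher, and FUT2, called lower, passed the filter through 1 line alone. B3GNT3, which extends the core 1 chain, gave log2 signals of -3.11, -3.55 and -3.09 in pLUM and 3.65, 3.66 and 3.81 in pLB. It was 124-fold higher in pLB (6.95 ± 0.19, limma adjusted p = 4.65e-07), or 46.3-fold with normexp. C1GALT1, the core 1 synthase, was 3.74-fold higher (adjusted p = 0.000167), and its 2 tested probes were both called higher.

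The other called genes of this list were closer to background or nearer the fold threshold. GCNT1, the core 2 branching enzyme, was well above background on no pLUM array and was at least 4.57-fold higher (adjusted p = 3.24e-06, means -7.36 and -3.19). The sialyltransferase ST6GALNAC4 was 2.58-fold higher (adjusted p = 0.00251). Both calls were lost with normexp, at log2 differences of 0.45 (adjusted p = 0.348) and 0.79 (adjusted p = 0.0362). The fucosyltransferase FUT2 was at least 2.68-fold lower in pLB (adjusted p = 3.7e-05, means -3.87 and -7.50), or at least 1.96-fold with normexp, and SLC35A1, which carries CMP-sialic acid into the Golgi, was 2.99-fold lower (adjusted p = 0.000208) with both tested probes called.

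Of 13 tested factors of mucous secretory cells, 5 were called lower in pLB, 3 higher and 5 not called, beside 23.0% and 22.7% of all genes. The median log2 difference was -0.22, but -0.54 with normexp and -0.84 with slide as a block. FOXA2 and ERN2, called higher, and FCGBP, called lower, passed the filter through 1 line alone. Among probes well above background on all 6 arrays, 1 was called higher and 4 lower, with a median of -1.28. SPDEF, a transcription factor of secretory epithelium, gave log2 signals of 3.51, 3.55 and 3.85 in pLUM and -3.46, -2.64 and -2.61 in pLB, a 93.2-fold lower signal in pLB (-6.54 ± 0.26, limma adjusted p = 1.96e-06), or 51.1-fold with normexp. The trefoil peptides, which are secreted with mucins, were lower for TFF3, at 32.2-fold (adjusted p = 5.21e-06, 18.7-fold with normexp), and for TFF1, at 3.13-fold (adjusted p = 0.00405). The lectin ZG16B was 3.54-fold lower (adjusted p = 5.53e-05).

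FOXA2 and KLF4, transcription factors of goblet cells, were called in the other direction. FOXA2 was at least 11.3-fold higher in pLB (adjusted p = 0.000442, means -6.32 and -1.89), or at least 2.25-fold with normexp. KLF4 was 4.17-fold higher (adjusted p = 0.000381), or 2.16-fold with normexp. ERN2 was at least 1.69-fold higher (adjusted p = 0.0324, means -5.74 and -4.62), a call that did not hold with slide as a block, at a log2 difference of 0.39 (adjusted p = 0.413), nor without pLUM replicate 2 or 3 or pLB replicate 2 or 3.

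All 10 listed genes whose products bind mucins, are coupled to them or cut them were tested, and 6 were called higher in pLB, 1 lower and 3 not called, beside 22.7% and 23.0% of all genes. The median log2 difference was 1.69, but with normexp it was 0.84 and 4 were called higher. MMP14, a membrane protease that can shed MUC1, was at least 56.5-fold higher in pLB (adjusted p = 8.56e-06, means -6.23 and 0.45), or at least 9.03-fold with normexp. ICAM1, a ligand of MUC1, gave log2 signals of -1.79, -1.78 and -1.77 in pLUM and 2.42, 2.35 and 2.05 in pLB, a 16.6-fold higher signal (4.05 ± 0.17, limma adjusted p = 2.08e-06). SRC, a kinase that phosphorylates the MUC1 tail, was 4.91-fold higher (adjusted p = 0.000108), or 3.14-fold with normexp.

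MSLN (mesothelin, the ligand of MUC16) was at least 6.70-fold higher (adjusted p = 0.000113, means -6.58 and -2.64), a call lost with normexp at 0.72 (adjusted p = 0.113). ERBB3 was 6.40-fold lower (adjusted p = 0.000508), with its 3 tested probes all called lower. ERBB2, the partner of MUC4, was not called at its brighter probe (-0.81 ± 0.19, adjusted p = 0.00707), and its other tested probe was called higher, at 1.03 (adjusted p = 0.0163), a call lost with slide as a block, at 0.79 (adjusted p = 0.14), and with normexp, at 0.53. The partner calls thus ran in both directions beside lower MUC1 and higher MUC4 repeat signal.

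**Figure D4:**
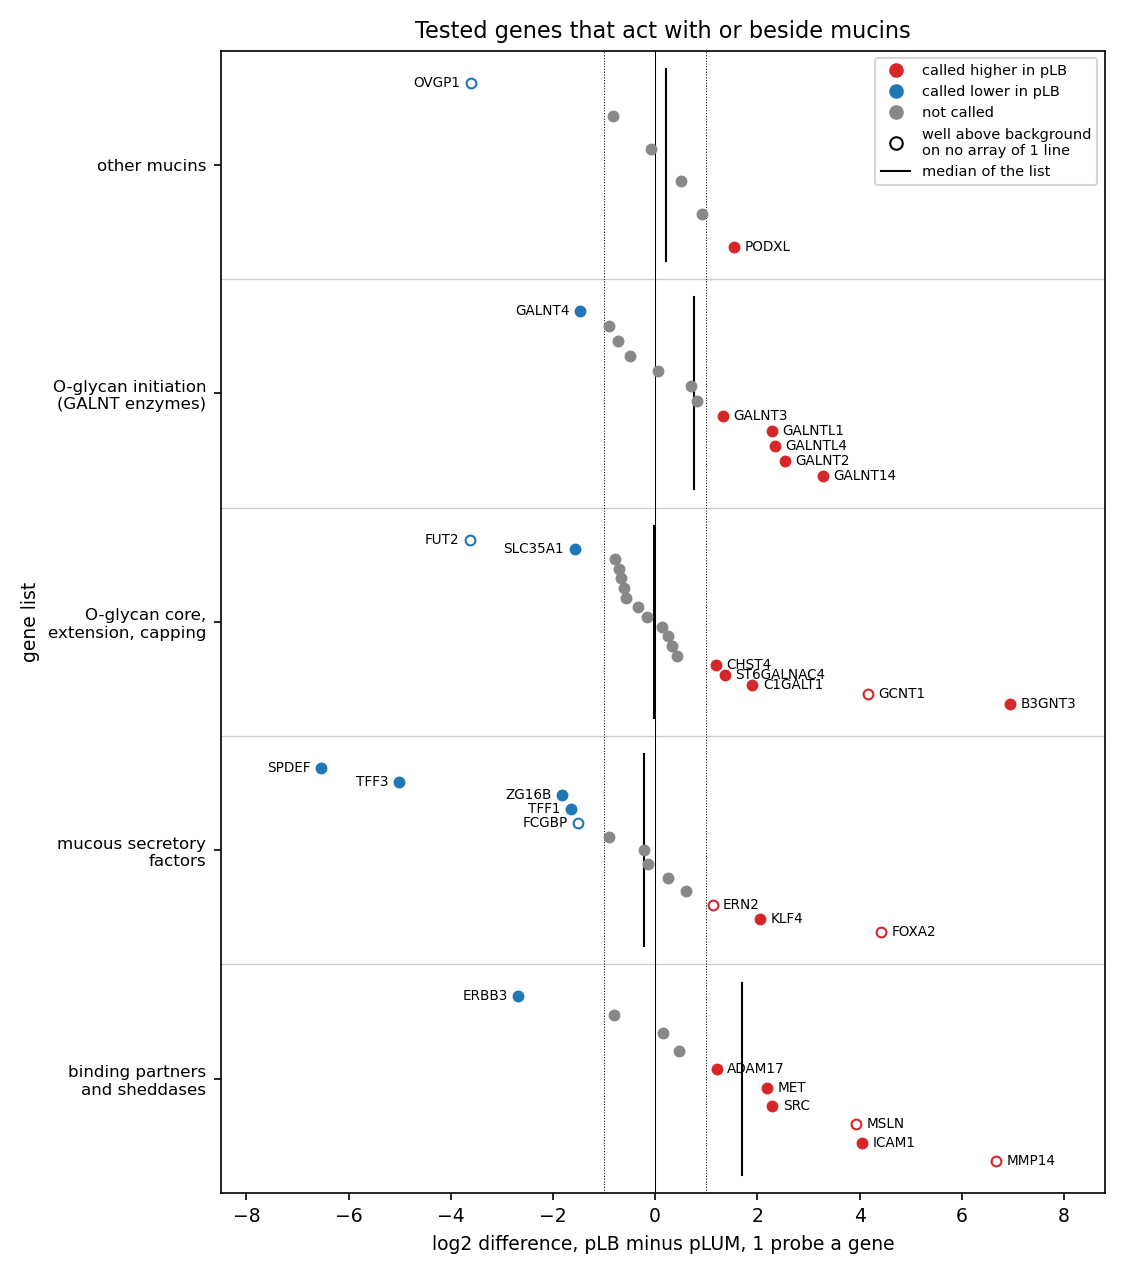
Log2 difference, pLB minus pLUM (x axis), of each tested gene in 5 lists of genes that act with or beside mucins (y axis, with 1 point per gene, spread vertically in order of value). Red marks genes called higher in pLB, blue those called lower and grey those not called, open circles mark genes well above background on no array of 1 line and plotted at the fitted difference, and the black bar is the median of the list. The GALNT enzymes and the binding partners have medians of 0.77 and 1.69, and SPDEF and TFF3 lie far to the left. The median of the binding partners includes the open circles of MMP14 and MSLN.

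Markers of other cell types were read on the same arrays, where 22.7% of all tested genes were called higher in pLB and 23.0% lower. COL1A2, THY1 and VWF were well above background on no pLUM array. They passed the filter through pLB alone and had to differ. Of 6 fibroblast markers, 3 were tested, of which COL1A2 and THY1 were called higher in pLB, at least 11.5-fold and at least 22.9-fold, or at least 2.26-fold and 3.46-fold with normexp, and COL1A1 was not called. COL3A1, DCN and PDGFRB were well above background on no array. The summed signal of the 3 tested genes, in units of the 75th percentile, was 0.729 to 0.951 in pLUM and 1.24 to 1.75 in pLB. Of 4 endothelial markers, VWF was called higher, at least 1.80-fold, and CDH5 was not, and PECAM1 and TEK were well above background on no array. The VWF call was lost with slide as a block, at a log2 difference of 0.86 (adjusted p = 0.0844), and with normexp, at -0.25. Their summed signal was 0.0562 to 0.0876 in pLUM and 0.0821 to 0.159 in pLB. Of 5 leukocyte markers, 4 were tested and none was called by its brightest tested probe. A dimmer PTPRC probe was called lower in pLB, at a log2 difference of -1.21 (limma adjusted p = 0.00453). With normexp this PTPRC difference was -0.80, under the 2-fold threshold. Whether such cells were present, and whether they had any part in the mucin differences, was not tested.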

How the data were processed

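RNA from 3 sorts of pLUM and 3 of pLB cells was profiled on 4-array Agilent slides. Cells had been stained for CK5 before sorting, and the fraction used is not given in the sources used here. The files deposited by the authors come from Agilent Feature Extraction 10.10.1.1 and hold a linear intensity for each spot, corrected for background within each array and not normalized between arrays. The submitters' processing notes also name Partek, with no role given. Dim signals depend on the background correction, so fold differences of called mucin and list genes that moved by over 1.5 times with normexp are given in both forms, and the number of arrays limits the precision.

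Control spots and spots flagged as outliers were dropped, deposited intensities were divided by the 75th percentile of their array and put on a log2 scale, and replicate spots of a probe were averaged. Lines were compared with limma 3.58.1 (lmFit and eBayes) in R 4.3.3, and the fit was tested on simulated data. Adjusted p-values are from this fit. A gene of a list was represented by its tested probe with the highest mean. Alternatives covered background correction, scaling, filters, tests, thresholds, slide, replicate numbers, probe rule and leaving out each array.

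Named genes are the 10 members, up to 4 called genes of each list in each direction with the largest fold change, neighbours within 100 kb, and the 3 genes nearest in pattern to a called member measured on all arrays, of which 1 is not reported here. COL1A2, THY1, COL1A1, VWF and CDH5, ERBB2, MUC5AC, MUC8, MUCL1 and CD164 were named after their values were seen. So were ITGA6, KRT5, KRT14, TP63, SNAI2, PGR, FCGBP and PTPRC. The members and lists were chosen with earlier results of these data known. Positions and names are those of the files (hg19), and names were updated only through transcript identifiers of RefSeq (GRCh38.p14), in which all 10 members were found. The E plus P treated cells of the methods were not analysed here.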

Additional observations from a re-analysis of the deposited data

How the results depend on the processing

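Of 122 recomputed counts of calls, 116 stayed within 1.5 times the reported value. Probes of mucins called higher in pLB numbered 1 rather than 2 with normexp and 4 with no fold threshold, and those called lower numbered 1 rather than 4 among probes well above background on all 6 arrays, since the MUC15 and MUC20 probes and the upstream MUC1 probe were then not tested. Genes of the 5 mucin-related lists called lower in pLB, 10 as reported, numbered 6 among such probes and 18 with no fold threshold, and all probes called higher fell from 5050 to 3000 with normexp. Leaving out each array in turn gave 4 to 4 mucin probes lower and 2 to 3 higher, 10 to 11 list genes lower and 19 to 21 higher, and 5104 to 6163 probes lower and 4973 to 5113 higher over the whole array.

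Signs turned for MUC2 probe A_33_P3401571 (-0.13), MUC2 probe A_23_P256784 (-0.050) and ERN2 (-0.30) with normexp and for MUC6 probe A_33_P3314500 without pLB replicate 1 (0.10, with -0.88 to 0.10 over the arrays left out), on the log2 scale, and none of these values passed the test. The cause was not tested. Normexp moved the median log2 difference of all tested probes by -0.25 and spike-in scaling by 0.20, and the other 3 scalings by less than 0.1.

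Replicate numbers did not pair the samples: same-numbered pLUM and pLB arrays deviated from their line means with correlations of -0.27, -0.09 and -0.22. With a replicate block, 4 mucin probes were lower and 2 higher, 10 list genes were lower and 19 higher, and 5388 probes were lower and 4979 higher over the array. What limits the MUC15, MUC20, MUC5B, MUC12, MUC13 and MUC16 values is signal over background.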
